A study of Mus musculus with 21 samples.

Results

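The genes Adam23, Zfp423, Zfp365 and Trf had no counts in any of the 3 libraries of mouse embryonic stem cells labelled 2i+LIF HP. They were chosen by these values: no counts in 2i+LIF HP together with counts in the libraries labelled CH+LIF HP or 2i+LIF LP. They are 4 of the 31053 gene IDs in the count tables. All 4 passed the filter on low counts that left 10643 genes for testing. Of those 10643 genes, 25 had no counts in 2i+LIF HP, a share of 0.235%, and between 13 (2i+LIF LP) and 48 (CH+LIF LP) had none in each other group. Since the choice used 2i+LIF HP, CH+LIF HP and 2i+LIF LP, levels in these 3 groups are given as a description, and tests are restricted to the other 4 groups.

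The cells were E14Tg2a, male embryonic stem cells from the 129 strain with a destabilised green fluorescent protein, GFPd2, inserted at one allele of Rex1 (Zfp42). All 21 libraries carried that insertion, and no group without it was analysed here. Each of 7 groups held 3 replicates: 2i+LIF PO, 2i+LIF LP, CH+LIF LP, LIF LP, 2i+LIF HP, CH+LIF HP and LIF HP. LIF is a cytokine that signals through STAT3. CH stands for CHIR99021, which inhibits GSK3 and so raises Wnt/beta-catenin signalling, and PD for PD0325901, which inhibits MEK and so lowers ERK signalling. 2i is the usual name for CH and PD together. One growth protocol was given for all libraries: NDiff227 medium with both inhibitors, followed at each passage by giving and withdrawing CH, PD and LIF in turn. Sampling was at zero passage and after 1 or 2 months. PO, found with 2i+LIF alone, was read as zero passage. The labels did not say whether LP or HP was the longer culture. They also did not say whether replicates were separate cultures, so that p-values measure the spread between these samples, which may be technical.

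ADAM proteins are membrane proteins of the cell surface, many of which cut other proteins. Adam23 lacks that catalytic activity and serves as a receptor for the secreted LGI proteins at synapses. Zfp423 is a zinc finger transcription factor that binds EBF proteins and the SMAD proteins of BMP signalling, and is known from neural and fat cell development. Zfp365 encodes a zinc finger protein that binds DISC1 and whose human counterpart is a p53 target linked to genome stability. Trf encodes transferrin, the secreted carrier that delivers iron to cells through the transferrin receptor.

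On GRCm38, Adam23 (ENSMUSG00000025964) lies on the plus strand at chr1:63445891-63596276. Zfp423 (ENSMUSG00000045333) lies on the minus strand at chr8:87661810-87959595, and Zfp365 (ENSMUSG00000037855) on the minus strand at chr10:67886103-67912662. Trf (ENSMUSG00000032554) lies on the minus strand at chr9:103204001-103230444. Trf alone overlapped another listed gene, Gm20425 on the same strand, which had no counts in any library. Reads in the shared part could be lost to both genes, and the Trf values carry that doubt.

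Promoter sequences from RefSeq on GRCm38.p6, covering 250 bases before to 50 after a start, were matched for 3 of the 4 genes. They are shown because Adam23 and Zfp423 moved together across the libraries while Zfp365 followed them less closely. Capitals mark CpG pairs, the sites of DNA methylation in mammals.
Adam23, chr1:63445641-63445940, plus strand: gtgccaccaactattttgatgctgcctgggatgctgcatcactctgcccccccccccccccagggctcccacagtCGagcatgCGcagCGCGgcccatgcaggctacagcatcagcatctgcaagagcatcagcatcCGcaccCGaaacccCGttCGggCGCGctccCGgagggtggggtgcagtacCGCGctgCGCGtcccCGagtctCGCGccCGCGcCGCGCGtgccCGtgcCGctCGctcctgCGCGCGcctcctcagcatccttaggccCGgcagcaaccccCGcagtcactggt
Zfp423, chr8:87959546-87959845, minus strand: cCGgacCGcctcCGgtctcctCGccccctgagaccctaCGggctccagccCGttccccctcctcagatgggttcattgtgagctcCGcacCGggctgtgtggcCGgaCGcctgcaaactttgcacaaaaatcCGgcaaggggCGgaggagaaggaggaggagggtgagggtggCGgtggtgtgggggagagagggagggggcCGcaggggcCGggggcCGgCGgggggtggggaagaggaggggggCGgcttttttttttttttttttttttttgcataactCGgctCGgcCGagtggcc
Zfp365, chr10:67912613-67912912, minus strand: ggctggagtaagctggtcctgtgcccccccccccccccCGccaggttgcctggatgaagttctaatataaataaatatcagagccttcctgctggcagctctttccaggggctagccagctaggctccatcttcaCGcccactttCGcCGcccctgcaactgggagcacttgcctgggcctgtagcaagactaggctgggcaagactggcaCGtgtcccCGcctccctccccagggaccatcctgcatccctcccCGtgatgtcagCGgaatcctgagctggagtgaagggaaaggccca

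The Adam23 promoter held 31 CpG pairs, more than 89.4% of the 32851 promoters of that length in the table, where the median was 7. The Zfp423 promoter held 21, more than 75.2%, and a second Zfp423 start at chr8:87804390-87804689 held 7. The Zfp365 promoter held 8, more than 51.4% of all promoters. Neither a TCF/LEF sequence (CTTTGAT, either strand) nor a STAT3 sequence (TTCNNNGAA, the same on both strands) was found in any of these 4 windows. Of all promoters, 3.73% held the first and 8.3% the second. No methylation or binding was measured here.

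Gene counts per library ranged from 1132126 to 3783043, with a median of 1763531, and those of 2i+LIF HP were 1813343, 1717302 and 1132126. Levels are CPM, counts scaled by TMM to a common library total, and are not divided by gene length, so that they are compared between libraries and not between genes. In 2i+LIF HP a count of 0 allows up to 3 counts, which is 1.394, 1.635 and 2.875 CPM in replicates 1, 2 and 3. Over the pooled 4662771 counts, without TMM scaling, it is 0.643 CPM. These limits cover counting error only. The 2i+LIF HP libraries detected 13963, 13958 and 12409 genes, within the range of the other libraries (11312 to 14118). Replicate 1 of 2i+LIF LP, with 31.7% of its counts from Gm42418, and replicate 1 of 2i+LIF PO, with 39.1% from mitochondrial genes, stood apart from the rest. In bulk RNA, fewer cells expressing a gene and less RNA per cell cannot be told apart.

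Adam23 was high in 4 groups and low in the other 3. Its counts were 345, 346 and 359 in LIF LP, which is 190.0, 229.7 and 173 CPM in replicates 1 to 3, and 197.5 ± 29.2 CPM (SD, n = 3) on average. In CH+LIF LP the replicates were at 165, 136 and 95.7 CPM, and in CH+LIF HP at 50.6, 116 and 118. All 3 LIF LP libraries lay above every other library. The 2i+LIF LP libraries split: replicate 1 was at 24.5 CPM, and replicates 2 and 3 at 105 and 110.2. Without replicate 1 the 2i+LIF LP mean was 108 CPM in place of 79.9 ± 48.0. Low levels were seen in 2i+LIF PO (10.6, 1.83 and 1.75 CPM) and in LIF HP (3.09, 0 and 2.06 CPM, from 6, 0 and 2 counts). The lowest library of the 4 high groups, at 24.5 CPM, was above the highest of the low groups, at 10.6. Within the middle of the order, CH+LIF LP, CH+LIF HP and 2i+LIF LP overlapped. At the bottom LIF HP overlapped both 2i+LIF PO and 2i+LIF HP, and these did not overlap each other.

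Zfp423 followed nearly the same order. LIF LP was highest, with 95, 96 and 134 counts (52.3, 63.7 and 64.5 CPM, mean 60.2 ± 6.80), and none of its libraries overlapped CH+LIF LP (41.2, 26.0 and 23.5 CPM). The CH+LIF LP libraries in turn lay above 2i+LIF LP (13.3, 20.7 and 22.9 CPM). CH+LIF HP, at 9.73, 21.5 and 12.2 CPM, overlapped 2i+LIF LP. The low groups were again 2i+LIF PO (0, 1.83 and 1.99 CPM) and LIF HP (4.64, 1.23 and 0 CPM), with 15 and 11 counts in all. Their levels overlapped each other, and all lay below the 9.73 CPM of the lowest CH+LIF HP library.

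Zfp365 had few counts and a wide spread. Its LIF LP replicates were at 25.9, 15.9 and 3.85 CPM (47, 24 and 8 counts), and CH+LIF LP at 11.6, 10.3 and 2.28 CPM. The 2i+LIF LP replicates lay close together at 9.82, 7.32 and 10.1 CPM. In both LIF LP and CH+LIF LP, replicate 3 was the low one. 2i+LIF PO was at 1.58, 3.40 and 3.99 CPM and LIF HP at 1.03, 5.54 and 0. CH+LIF HP, where Adam23, Zfp423 and Trf were well detected, had 2, 3 and 0 Zfp365 counts (1.30, 1.43 and 0 CPM). Every pair of neighbouring groups in the order of Zfp365 means overlapped.

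Trf had an order of its own, with CH+LIF HP and CH+LIF LP at the top. In CH+LIF HP the replicates were at 7.79, 35.8 and 20.6 CPM (12, 75 and 27 counts), and in CH+LIF LP at 17.4, 24.2 and 16.7 CPM. The 2i+LIF LP libraries again split, with no counts in replicate 1 against 16.8 and 29.6 CPM in replicates 2 and 3. LIF LP, the top group of the other 3 genes, was at 12.1, 2.66 and 1.44 CPM for Trf. LIF HP was at 5.67, 9.85 and 3.09 CPM, and 2i+LIF PO at 1.06, 0.262 and 3.49. Each group overlapped its neighbour in the order down to 2i+LIF PO, whose libraries all had at least 1 count while 2i+LIF HP had none.

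**Figure D1:**
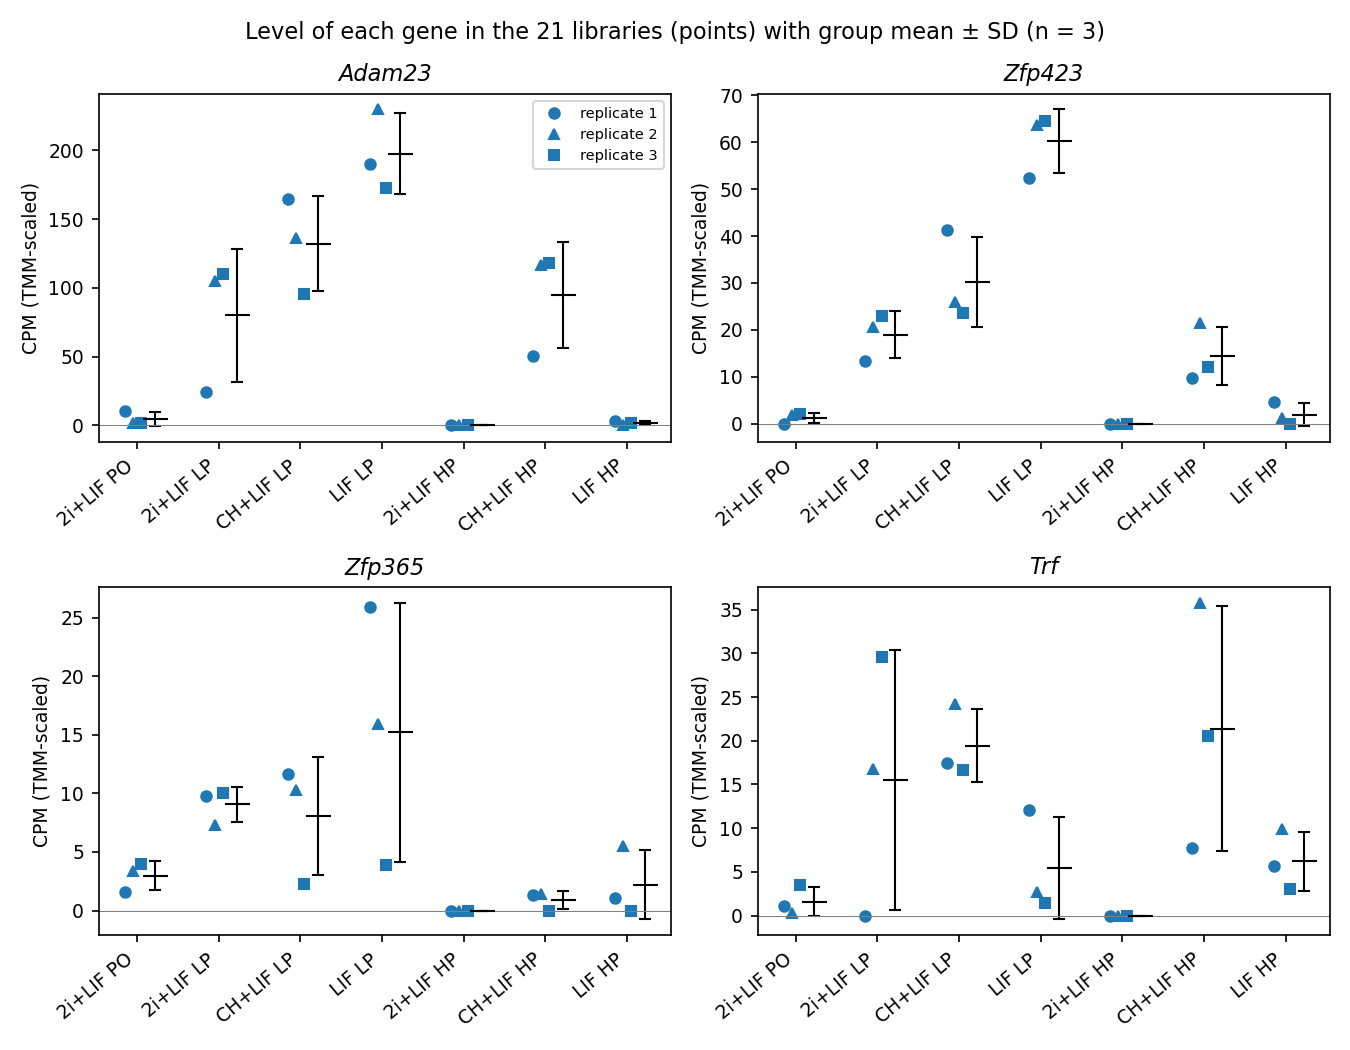
TMM-scaled CPM (vertical axis, one scale per gene) of the 4 genes in the 7 groups (horizontal axis), with a symbol per replicate and bars for the group mean ± SD (n = 3). LIF LP holds the highest Adam23 and Zfp423 libraries, 2i+LIF HP is at 0 throughout, and 2i+LIF LP replicate 1 lies below replicates 2 and 3 for Adam23, Zfp423 and Trf.

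Because 2i+LIF HP had no counts, folds over it are lower bounds, set against 3 counts over its pooled libraries with plain totals, and they are a description without a test. They bound the 2i+LIF HP count only and leave out the spread between replicates of the other group. In 2i+LIF LP that spread was an SD of 88.1 on the bound for Adam23 and 25.7 on that for Trf. The bounds of Adam23 were 346-fold in LIF LP, 226-fold in CH+LIF LP, 154.2-fold in CH+LIF HP and 134-fold in 2i+LIF LP. The bounds of Zfp423 were 107-fold in LIF LP, 52.1-fold in CH+LIF LP, 30.3-fold in 2i+LIF LP and 24.6-fold in CH+LIF HP. For Trf the bounds were 36.8-fold in CH+LIF HP, 32.1-fold in CH+LIF LP and 25.8-fold in 2i+LIF LP. Those of Zfp365 were 26.0-fold in LIF LP, 14.4-fold in CH+LIF LP and 13.8-fold in 2i+LIF LP, but only 1.62-fold in CH+LIF HP. The bounds of LIF HP and 2i+LIF PO were small for Adam23 (2.29 and 5.22) and Zfp423 (3.15 and 2.31), so that little separates these groups from what a count of 0 in 2i+LIF HP allows.

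The bounds depend on the depth of 2i+LIF HP, since leaving out a library spreads the 3 counts over a smaller total. Without 2i+LIF HP replicate 1 the CH+LIF HP bounds fell to 94.2 for Adam23, 15.0 for Zfp423, 22.5 for Trf and 0.987 for Zfp365, and without replicate 2 to 97.4, 15.5, 23.3 and 1.02. The 2i+LIF LP bounds fell to 81.7, 18.5, 15.8 and 8.41 in the same gene order without replicate 1, and to 84.4, 19.2, 16.3 and 8.69 without replicate 2. Trf rested further on single libraries: its CH+LIF HP bound was 22.2 without CH+LIF HP replicate 2, and its 2i+LIF LP bound was 15.4 without 2i+LIF LP replicate 3.

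**Figure D2:**
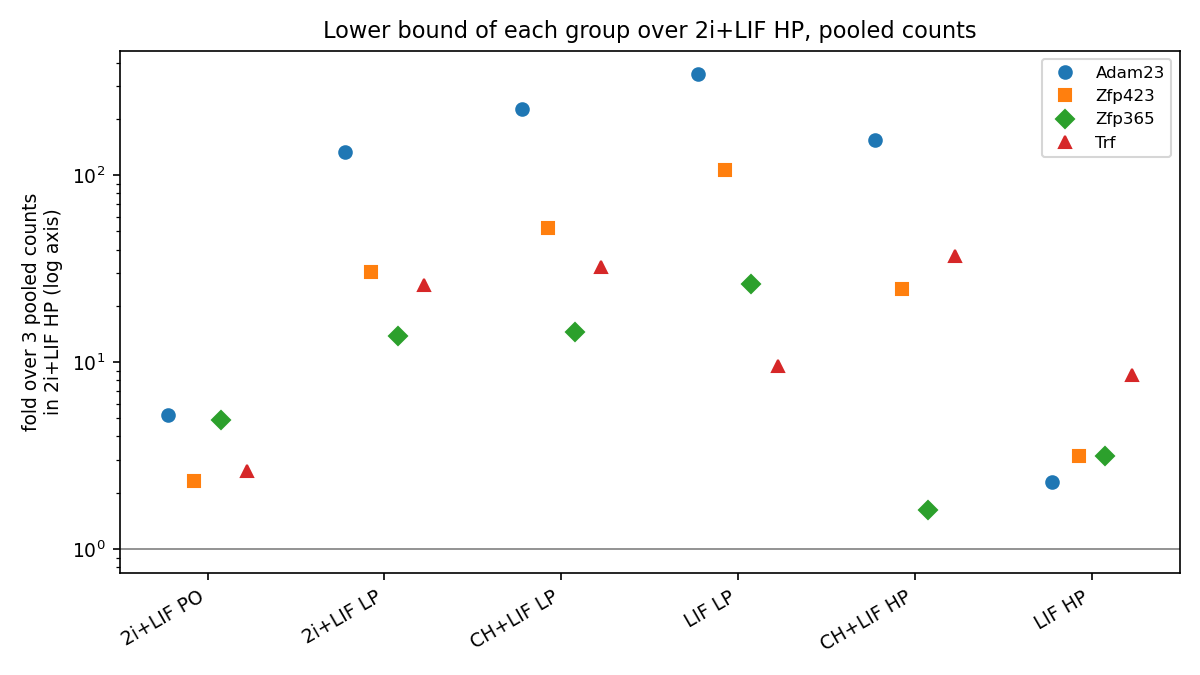
Lower bound of the fold over 2i+LIF HP (vertical log axis) for each gene (symbols) in the other 6 groups (horizontal axis), from pooled counts and a floor of 3 counts in the pooled 2i+LIF HP libraries. Adam23 lies highest in LIF LP at 346, and Zfp365 in CH+LIF HP lies lowest at 1.62.

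At the edge of the choice, the members ranked 1 (Adam23), 2 (Trf), 3 (Zfp423) and 4 (Zfp365) among genes without counts in 2i+LIF HP by the larger mean CPM of CH+LIF HP and 2i+LIF LP. Zfp365, the last inside, was at 0.910 CPM in CH+LIF HP and 9.07 in 2i+LIF LP. The next were Soga3 (8.03 and 6.14 CPM), Tek (1.46 and 7.88) and Gm47524 (1.77 and 7.86). Serpine2 and Cpt1c, with 2 pooled counts each in 2i+LIF HP, and Bdh2, with 3, had means of 26.7, 16.8 and 10.4 CPM in 2i+LIF LP. The pooled counts of these genes and the members in 2i+LIF HP thus differ by 2 or 3.

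The 5 tested comparisons between groups outside the choice used edgeR's quasi-likelihood test with Benjamini-Hochberg adjustment over 10643 genes. They share libraries, LIF LP, LIF HP and CH+LIF LP entering 2 or 3 of them and 2i+LIF PO 3, so their values are given side by side. The first asked how the 2 media differed at LP. LIF LP against CH+LIF LP called none of the 4 genes, none had an unadjusted p under 0.05, and none was called by DESeq2 either. The comparison called 0.047% of all genes. Zfp423 was 1.98-fold higher in LIF LP (log2 fold change 0.98 ± 0.50 SE, adjusted p = 1), and Trf had a log2 fold change of -1.84 ± 0.89 (adjusted p = 1). Without LIF LP replicate 1 the values were -3.23 for Trf and 0.27 for Zfp365, the latter in place of 0.88. Without overlap between the groups, Adam23 and Zfp423 lay higher in LIF LP, as did 7.16% of all genes, and Trf lay lower, as did 7.07%.

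By their labels, LIF HP and LIF LP share a medium. Dusp6, a gene that ERK signalling induces, was at 0.411 ± 0.711 CPM in LIF HP and 27.6 ± 17.1 in LIF LP, a level in LIF HP below that of the groups labelled with the MEK inhibitor. The label LIF HP is in doubt on that account. So is the label 2i+LIF LP, which names the inhibitor, with Dusp6 at 34.4 and 26.3 CPM in replicates 2 and 3. Whether LIF HP and LIF LP differ in passage alone was not tested. Adam23 fell by 6.77 ± 0.78 (SE) on the log2 scale, a 109-fold difference (edgeR adjusted p = 9.52e-06), and Zfp423 by 4.69 ± 0.65, a 25.7-fold difference (adjusted p = 8.06e-05). Each was lower in all 3 LIF HP libraries than in any LIF LP library, as were 19.3% of all genes. The sizes rested on LIF HP replicate 1, which had most of the counts left in that group: without it the values were -7.83 for Adam23 and -6.21 for Zfp423 (adjusted p = 0.000118 and 0.000147), and without LIF HP replicate 2 that of Adam23 was -6.18 (0.000158). Thus 2 of the 4 genes were called lower, against 4.63% of all tested genes. The median log2 fold change was -3.67 over the 4 genes and 0.01 over all genes. Zfp365 had a log2 fold change of -2.66 ± 0.87 and missed the threshold (adjusted p = 0.053). Its value was -4.43 without LIF HP replicate 2 and -2.06 without LIF LP replicate 1. It passed in 12 of 27 alternative fits, with an adjusted p of 0.0181 in DESeq2. Among these were fits without replicate 3 of LIF LP (0.0324) or CH+LIF LP (0.0492), replicate 2 of LIF HP (0.0349), replicate 1 of 2i+LIF PO (0.0357) or 2i+LIF LP (0.035), and replicates 1 (0.0498) or 3 (0.0488) of 2i+LIF HP. Trf was at 6.20 ± 3.41 CPM in LIF HP and 5.41 ± 5.84 in LIF LP and did not pass the test (adjusted p = 0.908). Its log2 fold change of 0.24 ± 0.94 turned to -0.26 without LIF LP replicate 3 or without LIF HP replicate 2, and to -0.09 without LIF LP replicate 2, and was 1.62 without LIF LP replicate 1. Whether the 4 genes differ from each other in this change was not tested.

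Against 2i+LIF PO, CH+LIF LP had 3 of the 4 genes called higher, where 4.24% of all genes were. Adam23 was 31.5-fold higher by edgeR (4.98 ± 0.67 SE on the log2 scale, adjusted p = 0.000103) and Zfp423 20.1-fold (4.33 ± 0.63, adjusted p = 0.000199). Trf was 11.2-fold higher (3.49 ± 0.96, adjusted p = 0.0265). These 3 genes did not overlap between the groups, as 13.7% of all genes did not in that direction. Zfp365 was at 8.07 ± 5.06 CPM in CH+LIF LP and 2.99 ± 1.25 in 2i+LIF PO (adjusted p = 0.293). The Trf call was lost when 1 library was left out: without 2i+LIF PO replicate 1 (adjusted p = 0.0597) or replicate 2 (0.0845), or without CH+LIF LP replicate 1 (0.0584) or replicate 2 (0.0779). Without 2i+LIF PO replicate 1, which stood apart and held 20 of the 34 Adam23 counts of its group, the Adam23 value was 6.15 (adjusted p = 2.71e-05), and without 2i+LIF PO replicate 3 that of Trf was 4.97 (0.0245). The 2i+LIF PO libraries carry another run name than all the others, and in every comparison with them the run and the group cannot be told apart.

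LIF LP against 2i+LIF PO had 2 of the 4 genes called higher, against 5.84% of all genes. Adam23 was 47.0-fold higher by edgeR (5.55 ± 0.68 SE on the log2 scale, adjusted p = 1.75e-05) and Zfp423 39.8-fold (5.31 ± 0.64, adjusted p = 1.48e-05), neither with overlap, as 16.4% of all genes. Without 2i+LIF PO replicate 1 the Adam23 value was 6.75 (adjusted p = 3.56e-06). Zfp365 had a log2 fold change of 2.27 ± 0.80 (adjusted p = 0.0646), which passed in 4 of 27 alternatives, among them DESeq2 (adjusted p = 0.0251) and the fits without LIF LP replicate 3 (0.039) or 2i+LIF LP replicate 1 (0.0442). Its value was 1.66 without LIF LP replicate 1. Trf had a log2 fold change of 1.65 ± 0.99 (adjusted p = 0.292), which was 3.15 when 2i+LIF PO replicate 3 was left out and 0.26 when LIF LP replicate 1 was.

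In LIF HP against 2i+LIF PO none of the 4 genes was called by edgeR or DESeq2, and none had an unadjusted p under 0.05, in a comparison that called 12.3% of all genes. Adam23 was at 1.72 ± 1.57 CPM in LIF HP and 4.71 ± 5.06 in 2i+LIF PO (log2 fold change -1.22 ± 0.87, adjusted p = 0.375). Its value was -0.05 without 2i+LIF PO replicate 1, -0.61 without LIF HP replicate 2 and -2.28 without LIF HP replicate 1. For Trf the log2 fold change was 1.89 ± 0.99 (adjusted p = 0.214), and 3.36 without 2i+LIF PO replicate 3. Those of Zfp423 (0.63 ± 0.75) and Zfp365 (-0.39 ± 0.90) turned to -0.89 and 0.01 without LIF HP replicate 1, and that of Zfp365 to 0.03 without replicate 3 and to -2.15 without replicate 2. With so few counts, differences larger than their standard errors were not called either, as for Adam23 and Trf. The lack of a call therefore does not exclude such differences.

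**Figure D3:**
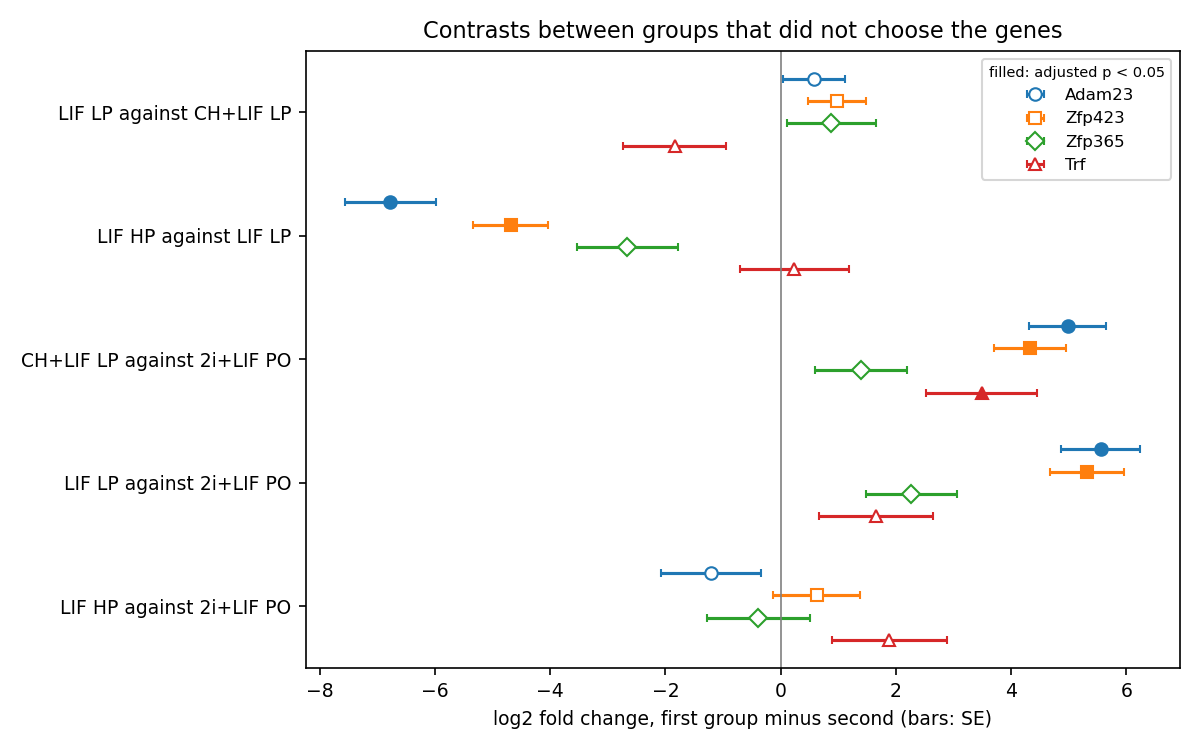
Fitted log2 fold change (horizontal axis, first group minus second, bars are SE) of the 4 genes in the 5 comparisons between groups that did not choose them (vertical axis), with filled symbols at an adjusted p under 0.05. Adam23 and Zfp423 are filled at -6.77 and -4.69 in LIF HP against LIF LP and above 4 in both LP groups against 2i+LIF PO, while Trf is filled in CH+LIF LP against 2i+LIF PO alone.

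Across the 21 libraries, Adam23 and Zfp423 were the closest pair of the 4, with a Pearson r of 0.929 on log2 CPM (Spearman rho 0.915). By Pearson correlation Adam23 ranked 1 for Zfp423, just before Basp1 (0.927), and Zfp423 ranked 3 for Adam23. By Spearman correlation Basp1 (rho 0.945) came before Adam23 for Zfp423. The least alike pair was Zfp365 and Trf, with an r of 0.354. These values describe libraries that share groups and the choice of the members, and carry no test. Where Adam23 had at least 30 counts, Zfp423 had 19.1 to 25.0 counts per 100 of Adam23 in CH+LIF LP, 27.5 to 37.3 in LIF LP and 10.3 to 19.2 in CH+LIF HP. In 2i+LIF LP the ratio was 54.3 in replicate 1, the library with little Adam23, and 19.7 and 20.8 in replicates 2 and 3.

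The genes most like each member, by Pearson correlation over the same 21 libraries, were sought outside the 4. For Adam23 these were Manba (r 0.954), which encodes a lysosomal mannosidase, Gprasp2 (0.936), which encodes a receptor sorting protein, and Enox1 (0.926). Manba was at 1.45 CPM in 2i+LIF HP and 0.344 in LIF HP, against 42.9 in LIF LP. For Zfp423 they were Basp1 (0.927), a gene of growing axons, Nrg1 (0.912), an ErbB receptor ligand, and Gprasp2 (0.909). Basp1 was at 510.0 CPM in LIF LP and 11.0 in 2i+LIF HP. For Zfp365 they were Trp53inp1 (0.881), a p53 target, Plod2 (0.855), a collagen-modifying enzyme, and Ptp4a3 (0.854). For Trf they were Ripply3 (0.837), a developmental repressor, Bst2 (0.818), an interferon-induced membrane protein, and Rdh11 (0.798), a retinol dehydrogenase. All of these likeness genes had counts in 2i+LIF HP, the fewest being 2 for Nrg1.

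**Figure D4:**
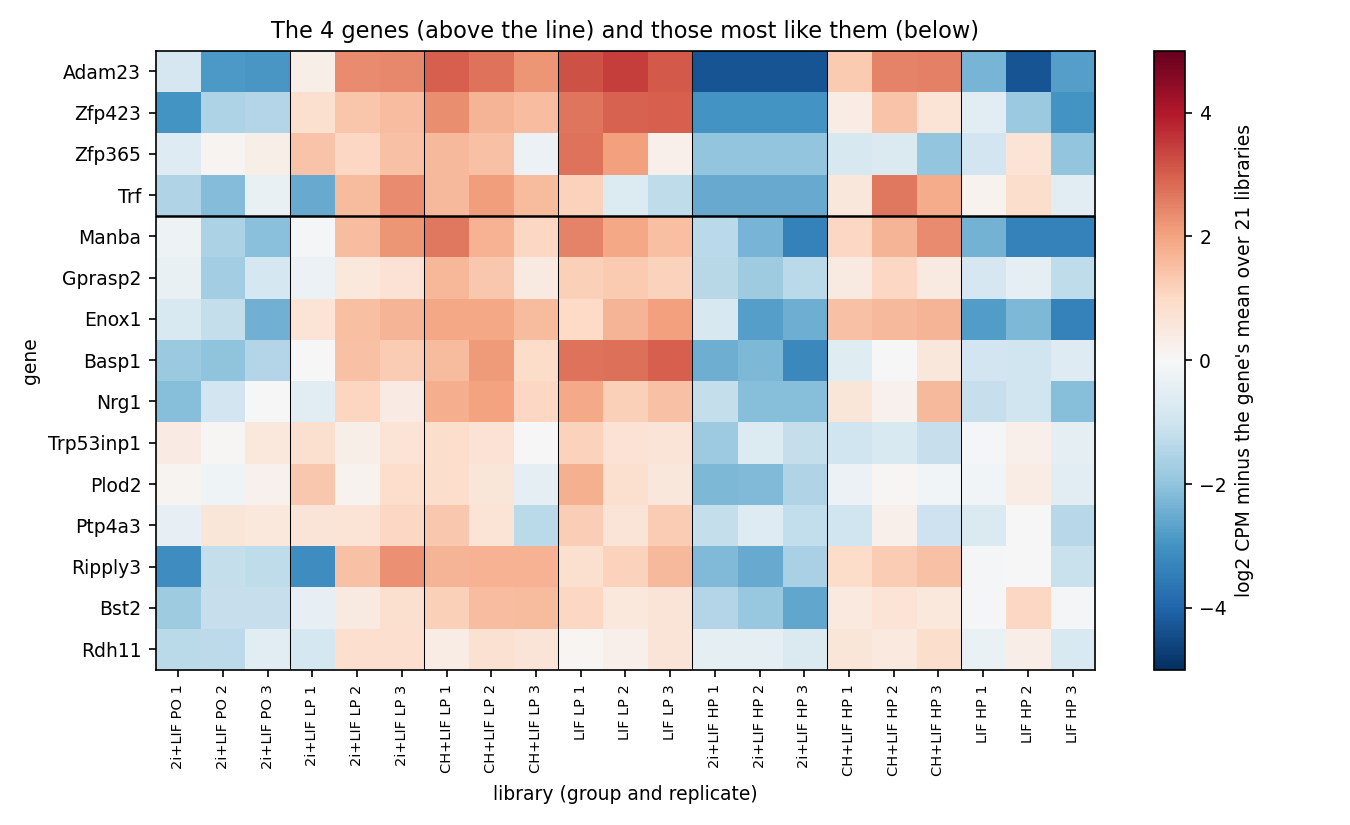
Log2 CPM minus each gene's mean over the 21 libraries (colour) for the 4 genes, above the line, and the 11 genes most like them, below it, in every library (horizontal axis). The 2i+LIF PO, 2i+LIF HP and LIF HP columns are low for Adam23, Zfp423, Manba and Enox1, and Trf and Ripply3 are low in 2i+LIF LP replicate 1.

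The nearest tested genes along the chromosome had counts in 2i+LIF HP. So did all but 25 of the 10643 genes tested (0.235% without), so their counts do not show whether the absence was local. Beside Adam23, Zdbf2 (131 kb away) had 240 pooled counts in 2i+LIF HP and Fastkd2 (134 kb) had 296. Zdbf2, an imprinted gene, was itself at 46.1 ± 9.59 CPM in 2i+LIF HP and 65.4 ± 8.36 in LIF HP, against 351 ± 24.5 in LIF LP and 334 ± 77.7 in CH+LIF LP. Beside Zfp423, Cnep1r1 (159 kb) was at 22.2 ± 6.16 CPM in 2i+LIF HP and 21.7 to 28.0 in the other group means, and Gm2694 (136 kb) had 7 pooled counts. The neighbours of Zfp365, Ado and Rtkn2, had 120 and 34 counts there. Srprb, 1.86 kb from Trf, had 84 counts, and 1300017J02Rik, 20.1 kb away, had 7.

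Among genes that work with the members, counts are over 5 comparisons and lists set with earlier results known, and alternative fits were run for the members only. Over all genes tested, LIF HP against LIF LP called 4.63% lower and 5.33% higher, CH+LIF LP against 2i+LIF PO 4.07% and 4.24%, LIF LP against 2i+LIF PO 6.11% and 5.84%, and LIF HP against 2i+LIF PO 5.17% and 7.1%. Of 18 genes of the LGI-ADAM receptor complex and ADAM relatives, 10 were tested, and only Adam19, a catalytically active relative, was called. It was lower against 2i+LIF PO in CH+LIF LP (16.5 ± 2.29 against 79.3 ± 45.5 CPM, edgeR adjusted p = 0.00581), LIF LP (adjusted p = 0.00366) and LIF HP (adjusted p = 0.0436). Adam22, the closest relative of Adam23 as an LGI receptor, had a log2 fold change of -1.86 in LIF HP against LIF LP (adjusted p = 0.222), at 1.75 and 6.06 CPM. Adam11, another relative, had one of 2.49 ± 0.94 (adjusted p = 0.0864), at 13.6 and 2.48 CPM. The median over the 10 in that comparison was -0.22, beside 0.01 over all genes.

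Of 22 relatives and partners of Zfp423, 15 were tested. In LIF HP against LIF LP, where 4.63% of all genes were called lower, 4 fell and none rose: Bmp4, the BMP ligand (32.4 ± 4.55 against 466 ± 102 CPM, edgeR adjusted p = 0.00199), its targets Id1 (adjusted p = 0.0224) and Id2 (0.0151), and Ebf1, a Zfp423 partner (0.0233). Id3 and Id4 of the same list were not called there (log2 fold change -1.3 ± 1.07 and -0.35 ± 0.6, edgeR adjusted p = 0.477 and 0.764). Bmp4 and Id1 were called higher against 2i+LIF PO in CH+LIF LP (742 ± 96.7 against 82.8 ± 64.5 CPM for Bmp4, adjusted p = 0.00666) and in LIF LP (adjusted p = 0.0177), where the receptor gene Bmpr1a was also higher (0.018). In 2i+LIF HP Bmp4 was at 81.5 CPM, Id1 at 15.4 and Ebf1 at 22.7, below their LIF LP means, while Id2 was at 45.8 ± 31.9, beside 46.5 ± 25.0 in LIF LP. LIF HP against 2i+LIF PO called Parp1 and Cep290 lower (adjusted p = 0.0428 and 0.0151). The list's median log2 fold change in LIF HP against LIF LP was -0.97, beside 0.01 over all genes.

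Of 16 genes of Zfp365 and genome stability, 15 were tested, and their calls went both ways. In LIF HP against LIF LP Cdkn1a, the p53-induced cell cycle inhibitor, rose to 432 ± 64.3 CPM (edgeR adjusted p = 0.0105) and the centrosome gene Pcm1 fell (adjusted p = 0.0277). Cdkn1a was lower in LIF LP than in 2i+LIF PO (adjusted p = 0.0168). LIF HP against 2i+LIF PO called Trp53 and Parp1 lower (adjusted p = 0.00412 and 0.0428).

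Of 27 genes of iron uptake, storage and export, 15 were tested. The importer gene Slc39a14 fell from 28.6 ± 4.17 CPM in LIF LP to 1.1 ± 1.04 in LIF HP (edgeR adjusted p = 4.43e-05), and was higher in CH+LIF LP than in 2i+LIF PO (28.7 ± 8.79 against 1.2 ± 0.588 CPM, adjusted p = 3.56e-05) and in LIF LP than in 2i+LIF PO (adjusted p = 1.75e-05). Ireb2, a sensor of cellular iron, fell in LIF HP against LIF LP (adjusted p = 0.0429). Hmox1, which releases iron from haem, was higher than in 2i+LIF PO in CH+LIF LP (adjusted p = 0.0139), LIF LP (0.027) and LIF HP (0.0487). Tfrc, the receptor for transferrin, was at 251 CPM in 2i+LIF HP and between 95.7 and 183 in the other groups, and was not called in any of the 5 comparisons. In LIF LP against CH+LIF LP no gene of these 4 lists was called.

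Markers bore on what else the libraries could hold. All 10 embryonic stem cell markers were detected in every group, with summed levels of 1513 to 2315 CPM in 2i+LIF HP and 2435 to 4927 in the others. Of the 10, Nanog, Zfp42, Esrrb, Tfcp2l1 and Dppa5a were called lower in both CH+LIF LP and LIF LP against 2i+LIF PO, where Adam23 and Zfp423 rose, and none in LIF HP against LIF LP, where these fell. In LIF HP against 2i+LIF PO Pou5f1 was called higher and Zfp42 and Tfcp2l1 lower. Of 6 primed epiblast markers 5 were tested: Pou3f1 was called higher in both LP groups against 2i+LIF PO, Pou3f1 and Otx2 lower in LIF HP against LIF LP, and Otx2 lower in LIF HP against 2i+LIF PO. In 2i+LIF HP, the group without counts of the 4 genes, other markers of these lists stood out, given without a test. The primed epiblast list's Lef1 was at 35.0 ± 13.3 CPM and T, also a mesoderm gene, at 22.4 ± 12.4, against group means of at most 3.63 and 1.44 elsewhere. Otx2 was at 2.04 ± 1.18 CPM there, and the stem cell list's Tdgf1 at 36.5 ± 27.7 against group means of 375 to 549. Of 11 endoderm markers none passed the filter, their sum stayed at or under 12.5 CPM, with the highest sum in 2i+LIF HP, and Ttr was at 0 everywhere. The part of such cells in the Trf level was not tested.

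The 10 neural markers summed to 204 to 219 CPM in LIF LP, 116 to 255 in 2i+LIF LP, 135.2 to 142.2 in CH+LIF LP and 61.0 to 64.0 in CH+LIF HP, the groups with high Adam23. In those with low Adam23 they summed to 43.8 to 74.8 in 2i+LIF PO, 43.1 to 162 in 2i+LIF HP and 93.6 to 146.4 in LIF HP, so that the sums of high and low groups overlapped. Tubb3 had the highest mean of the 10 in every group and so weighed most in the sums. Sox1 ran nearly in the order of Adam23. Its means were 48.7 ± 7.99 CPM in LIF LP, 18.2 ± 15.6 in CH+LIF LP and 10.6 ± 8.76 in 2i+LIF LP. CH+LIF HP (7.4 ± 3.39), LIF HP (6.66 ± 2.28) and 2i+LIF PO (5.08 ± 1.27) lay close together. 2i+LIF HP was lowest, at 0.545 ± 0.944. Nes, highest in 2i+LIF PO (16.6 ± 6.59), and Map2, at 7.44 ± 3.49 in 2i+LIF HP, did not follow that order. Dcx was at 0 in every library. Of the 5 neural markers tested, Sox1, Pax6 and Tubb3 were called higher in LIF LP than in 2i+LIF PO, while Map2 (log2 fold change 1.98, edgeR adjusted p = 0.0553) and Nes (-0.37, adjusted p = 0.747) were not called. Sox1 was the one neural marker called in LIF HP against LIF LP, where it fell (adjusted p = 0.0154). The part of other cell types or of the pluripotent state in the Adam23 and Zfp423 levels was not tested. The 11 fibroblast markers summed to at most 46.3 CPM.

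Levels of genes that report on the 2 inhibited pathways were looked at after the values were seen. Dusp6, which ERK signalling induces, was low in 2i+LIF PO (2.85 ± 0.753 CPM), 2i+LIF HP (3.37 ± 1.36) and LIF HP (0.411 ± 0.711), and high in CH+LIF LP (38.0 ± 4.22), CH+LIF HP (37.1 ± 5.75) and LIF LP (27.6 ± 17.1). In 2i+LIF LP, whose label names the MEK inhibitor, its replicates were at 0.701, 34.4 and 26.3 CPM. Replicates 2 and 3 thus lay near the groups labelled without it that had high Dusp6. Replicate 1, low as the label would have it, was the library low in Adam23 and without Trf. The label LIF HP names no MEK inhibitor, and its Dusp6 level lay below those of 2i+LIF PO and 2i+LIF HP. Axin2 and Sp5, which beta-catenin induces, were highest in 2i+LIF HP (58.7 ± 13.1 and 361 ± 197 CPM), against group means of at most 14.9 and 32.5 elsewhere. At LP Sp5 was at 29.8 ± 28.7 CPM in 2i+LIF, 1.03 ± 0.46 in CH+LIF and 0.367 ± 0.636 in LIF. Axin2 was at 14.9 ± 13.5, 5.16 ± 5.32 and 0.763 ± 0.686 in the same order. The replicates of CH+LIF and LIF overlapped for both genes, and those of 2i+LIF and CH+LIF for Axin2, although both of these labels name CH. Replicate 1 of 2i+LIF LP, which stood apart, was its highest library, at 62.4 CPM for Sp5 and 28.8 for Axin2. At HP Sp5 was at 32.5 ± 14.6 CPM in CH+LIF and 24.5 ± 5.34 in LIF, ranges that overlapped, and Axin2 at 5.53 ± 0.876 and 9.06 ± 3.12. Whether the labels give the agents present at sampling was not tested, for LIF HP, 2i+LIF LP or any other group. These levels stand beside those of the 4 genes, and a link between them was not tested.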

How the data were processed

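Total RNA of 21 libraries was sequenced as mRNA libraries, per the labels' protocols. The authors deposited whole-number counts per Ensembl gene ID for each library, not normalized. The submitters' processing notes name bcl2fastq, STAR 2.6.0a, HTSeq and the build mm10. The annotation, strand setting and filters are not given in the sources used here. Of all entries in a library, 47.4 to 62.0% were gene counts, and the 5 closing entries that name no gene stayed out of library sizes and tests. Symbols and positions came from GENCODE M21.

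Computed here with edgeR 4.0.16 in R 4.3.3: TMM scaling, filterByExpr, 1 quasi-likelihood fit of all 21 libraries with 14 residual degrees of freedom, two-sided tests of 5 contrasts and Benjamini-Hochberg adjustment over 10643 genes within each, threshold 0.05. SE is the absolute log2 fold change over the square root of F. Likeness used log2 CPM with a prior count of 2. The steps were tested on simulated data. Alternatives were DESeq2 1.42.0, its size factors, no filter, 2 groups alone, the replicate number as a block, the 2 libraries that stand apart left out and each library left out, those outside the groups compared being added after seeing the data.

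The members and lists were chosen with earlier results of these data known. Named genes are the members, list genes past the threshold with the list's first relatives, the 3 most like each member, those at the edge of the choice and the nearest neighbours; some list genes are not reported here. Pathway reporter genes were chosen after their values were seen.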

Additional observations from a re-analysis of the deposited data

How the results depend on the processing

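Adam23 and Zfp423 kept their calls and direction in LIF HP against LIF LP and in both LP groups against 2i+LIF PO under all 27 alternatives. With 3 counts allowed in each 2i+LIF HP library in place of the pool, the bounds became 51.4 (CH+LIF HP) and 44.5 (2i+LIF LP) for Adam23, 8.19 and 10.1 for Zfp423, 0.539 and 4.59 for Zfp365 and 12.3 and 8.61 for Trf in the same order of groups, a fall set by the floor itself. Leaving out 1 library moved the Zfp423 bound of CH+LIF HP between 15.0 and 29.0 and the Zfp365 bound of 2i+LIF LP between 8.41 and 14.8. Leaving out 1 library also reversed 3 log2 fold changes that were not called: Trf in LIF HP against LIF LP ranged from -0.26 to 1.62, and against 2i+LIF PO in LIF HP Zfp423 ranged from -0.89 to 1.01 and Zfp365 from -2.15 to 0.027, the cause not being tested. In no contrast did all 3 same-numbered pairs correlate at over 0.1 in their deviations from the group mean (r from -0.141 to 0.263). Those of replicate 1 did in every contrast (0.119 to 0.263). Libraries of unlike number were not compared, so whether the replicate numbers pair the libraries was not tested. With the replicate number as a block, the members called were 0 in LIF LP against CH+LIF LP, 3 in LIF HP against LIF LP, 3 and 2 in CH+LIF LP and LIF LP against 2i+LIF PO and 0 in LIF HP against it, the added one being Zfp365 (log2 fold change -2.69, adjusted p = 0.0449 in edgeR). With Spearman's in place of Pearson's correlation, the 3 genes most like each member shared 0 (Adam23), 1 (Zfp423), 2 (Zfp365) and 1 (Trf) of their names. Depth limits Zfp365 and Trf most, with at most 79 and 114 pooled counts in a group.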
